A study of Mus musculus with 10 samples.

Results

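Genes for the making and the use of glucose were examined in mouse liver: the gluconeogenic enzymes G6pc, Pck1, Fbp1 and Pcx, the glucose transporter Slc2a2, the glycolytic enzymes Gapdh, Eno1 and Pklr, and Pdk4, a kinase that holds pyruvate back from oxidation. Members were found by symbol in the platform annotation of the array. Of the 9 symbols, 7 matched a probe set, and Pck1 and Eno1 matched none and are not analysed here. The 7 genes had 17 probe sets of 10043 on the array, of which 7 were regular probe sets (G6pc, Fbp1, Pcx, Slc2a2 and Pdk4 with 1 each, Pklr with 2). The other 10 were the manufacturer's control probe sets for Gapdh (6) and Pcx (4). A further probe set names Gapdh together with 2 of its pseudogenes, is not counted as a member, and is described separately.

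Liver RNA of female mice aged 6 weeks, fed chow and not fasted, was hybridised to 10 Affymetrix MG_U74A arrays. Per the file headers each array holds RNA of its own numbered mouse, and RNA, cDNA and cRNA of all mice were prepared together. The arrays comprised 5 of Scd1 -/- mice whose background mixed 129 with C57BL/6J, and 5 of Scd1 +/+ C57BL/6J mice. Scd1 encodes stearoyl-CoA desaturase, which makes monounsaturated fatty acids, and the series compares gene expression with and without it. Strain background and chip lot both follow genotype exactly, so the 3 cannot be told apart here. The arrays are called null 1 to 5 and WT 1 to 5. In whole liver a change in the number of cells of a type and a change in the RNA per cell cannot be told apart either.

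The arrays were placed in 3 fluidics runs, inferred from gaps of over 1 hour between the hybridisation times in the file headers. Null 1 to 4 fell in run 1, null 5 with WT 1 to 3 in run 2, and WT 4 and 5 in run 3. The Scd1 probe set of highest signal had a mean normalized intensity of 419 ± 308 in Scd1-null liver and 17523 ± 2610 in wild-type liver (SD, n = 5 each). The hepatocyte markers measured were Alb, Apoa1, Ttr, Cps1, Tat, Fga, Fgb and Cyp2e1. With limma 0 of 8 were called, and 1 had an unadjusted p under 0.05, a level that 26.3% of all genes tested reached. Alb had the same normalized value, 28479, on all arrays but null 2, since quantile normalization gives probe sets of equal rank equal values. Apoa1 ranged from 1518 to 11848 in Scd1-null and from 1367 to 16361 in wild type. The count therefore does not show equal hepatocyte content. Of 4 measured periportal markers, from the zone where gluconeogenesis is strongest, 1 was called higher, beside 3.55% of all genes tested. That was Hal, histidine ammonia lyase (0.45, adjusted p = 0.0421), whose groups overlapped. Arg1, Ass1 and Cps1 differed by 0.03, -0.02 and 0.006 and were not called. Of 5 measured pericentral markers 0 were called with limma, and 0 had an unadjusted p under 0.05. The part of zonation in the results was not tested. Of 26 measured markers of muscle, fat, kidney, pancreas, blood, endothelium, stellate cells and bile ducts, with immune cells counted under blood, 0 were called with limma and 4 had an unadjusted p under 0.05, again beside 26.3% of all genes. Their differences lay between -0.36 and 0.50 on the log2 scale. The mean was higher in Scd1-null liver for 4 of 4 endothelial, 3 of 4 muscle, 1 of 3 fat and 1 of 2 kidney markers. It was higher for 0 of 5 immune cell, 0 of 3 erythroid, 0 of 3 stellate and duct and 0 of 2 pancreas markers. Among all genes it was higher for 2754 of 5923. Whether cell content differed was not tested.

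Liver makes glucose by running most of glycolysis backwards. Pyruvate carboxylase (Pcx) and the carboxykinase (Pck1) bypass pyruvate kinase (Pklr), fructose bisphosphatase (Fbp1) bypasses phosphofructokinase, and glucose-6-phosphatase (G6pc) frees the sugar, which leaves through the transporter GLUT2 (Slc2a2). Insulin lowers transcription of G6pc through FOXO factors, and glucose raises that of Pklr through the factor ChREBP, encoded by Mlxipl. Pdk4 rises in fasting and phosphorylates pyruvate dehydrogenase, which switches it off.

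Promoters are shown for G6pc, Pklr and Igfbp1, since G6pc and Igfbp1, which insulin represses, and Pklr, which glucose induces, are textbook examples of the elements marked, and their values are given below. Each window runs from 250 bases before a RefSeq transcription start to 50 bases after it, on GRCm38.p6. Capitals mark matches, on either strand, to CAAAACA (the core of the insulin response element), to GTAAACA (a forkhead consensus) and to TATAAA for G6pc and Igfbp1. For Pklr they mark matches to CACGGG (each end of a carbohydrate response element), to CACGTG (an E-box) and to TATAAA. None of these motifs overlapped another in the 3 windows.
G6pc, chr11:101367466-101367765, plus strand: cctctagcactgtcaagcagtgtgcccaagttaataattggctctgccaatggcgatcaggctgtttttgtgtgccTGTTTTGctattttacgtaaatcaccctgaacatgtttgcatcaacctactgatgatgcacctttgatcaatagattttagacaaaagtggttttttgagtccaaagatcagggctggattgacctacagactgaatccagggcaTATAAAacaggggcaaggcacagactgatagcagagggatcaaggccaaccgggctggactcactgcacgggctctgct
Igfbp1, chr11:7197537-7197836, plus strand: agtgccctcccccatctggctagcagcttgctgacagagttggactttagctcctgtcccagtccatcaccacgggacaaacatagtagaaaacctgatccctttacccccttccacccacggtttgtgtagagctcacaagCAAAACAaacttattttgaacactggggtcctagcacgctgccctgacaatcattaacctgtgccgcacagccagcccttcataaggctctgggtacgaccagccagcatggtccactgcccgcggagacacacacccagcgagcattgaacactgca
Pklr, chr3:89136373-89136672, plus strand: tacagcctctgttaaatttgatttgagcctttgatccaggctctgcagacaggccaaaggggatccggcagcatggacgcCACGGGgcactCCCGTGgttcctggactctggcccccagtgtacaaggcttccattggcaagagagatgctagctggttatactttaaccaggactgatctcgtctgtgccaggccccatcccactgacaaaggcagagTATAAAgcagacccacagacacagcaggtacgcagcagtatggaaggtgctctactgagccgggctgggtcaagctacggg

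The G6pc and Igfbp1 windows each held a single CAAAACA match, which begins 174 bases before the G6pc start, on the minus strand, and 108 bases before the Igfbp1 start. Of all 32851 promoter windows of this length, 6.28% held that motif. The Pklr window held CACGGG on each strand, beginning 170 and 159 bases before the start, the arrangement of the carbohydrate response element through which ChREBP acts. CACGGG occurred in 10.1% of windows, and the G6pc and Igfbp1 windows held it as well, not in capitals there. The other Pklr window in the table, of an upstream start, held none of the motifs listed. A match is a description of letters and not a measured site.

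Across the 7 regular probe sets no difference between the groups passed the test. With limma 0 of 7 were called at an adjusted p under 0.05, against 6.33% of all 7569 probe sets tested (3.57% higher and 2.76% lower in Scd1-null liver), and 0 had an unadjusted p under 0.05, against 26% of all probe sets, the lowest being 0.0694. In 6 of 7 the mean was higher in Scd1-null liver, and the median difference was 0.10 on the log2 scale, beside -0.015 over all probe sets tested. All 7 passed the filter on low signal, and in all 7 the values of the groups overlapped. Of all calls 56.4% were higher in Scd1-null liver, against 83.3% on the deposited scale, where the median of all probe sets was 0.062. For comparison, the Scd1-null values lay wholly above the wild-type values in 4.03% of probe sets tested and wholly below in 4.10%.

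**Figure D1:**
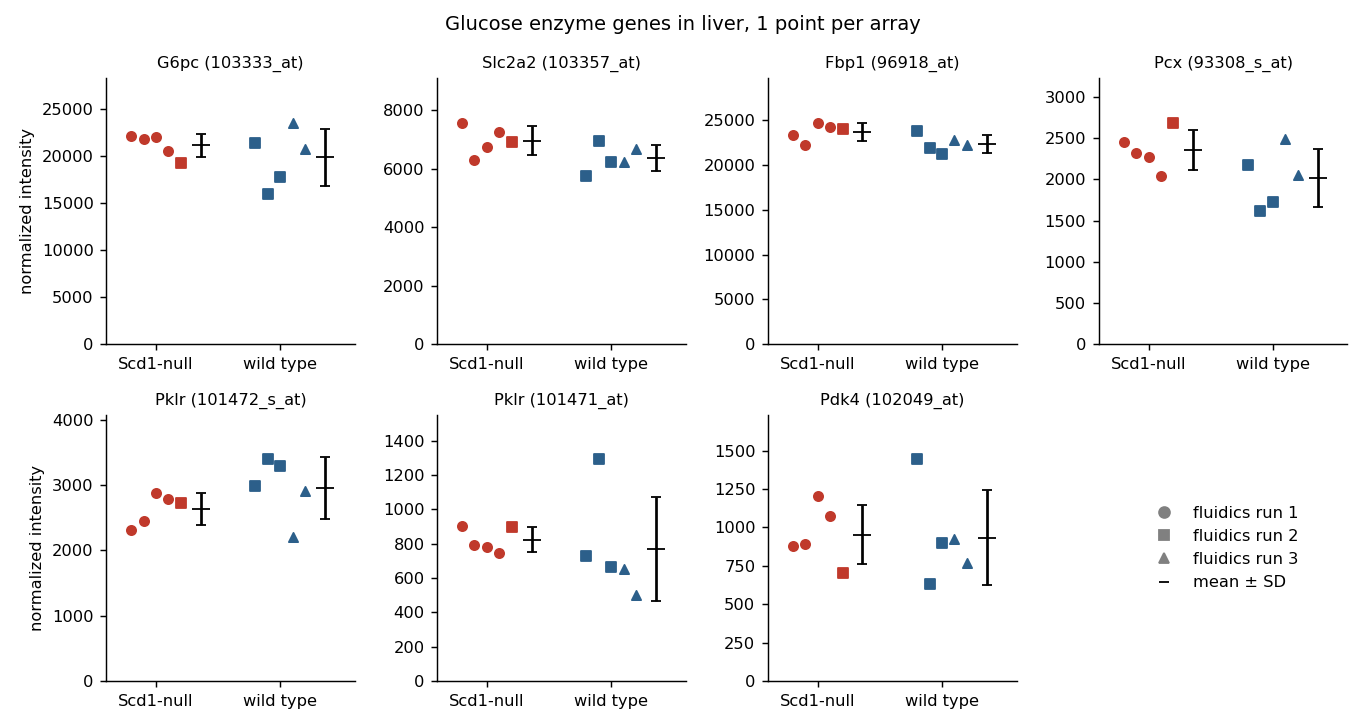
Normalized intensity of the 7 regular probe sets of G6pc, Slc2a2, Fbp1, Pcx, Pklr and Pdk4, with a point for each of 5 Scd1-null arrays (left) and 5 wild-type arrays (right), point shapes for the fluidics run, and bars for the mean and SD. The groups overlap in all 7 panels; wild-type G6pc extends down to 15967, and Pdk4 has its highest value, 1443, in wild type.

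G6pc, whose product frees glucose for release, had a normalized intensity of 22071, 21810, 21965, 20508 and 19245 in null 1 to 5. In WT 1 to 5 it read 21371, 15967, 17731, 23521 and 20697. The lowest and the highest of the 10 values were both wild type, so the Scd1-null arrays lay within the wild-type range. The difference was 0.10 in log2 (limma adjusted p = 0.525, SE 0.094), or a ratio of 1.07 with a 95% interval of 0.932 to 1.23. On the deposited scale the difference was 0.28 (limma adjusted p = 0.169), so the interval holds for the normalized values. In run 2, null 5 stood at 19245 beside a mean of 18356 for WT 1 to 3, a log2 difference of 0.0788.

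Slc2a2, the glucose transporter of the hepatocyte surface, read 7576, 6286, 6736, 7271 and 6919 in null 1 to 5. The wild-type values were 5751, 6940, 6224, 6241 and 6693. The wild-type value of 6940 exceeded 3 of the Scd1-null values, and the Scd1-null mean was 6957 ± 496 against 6370 ± 461 in wild type (SD, n = 5 each). The difference was 0.13 in log2 (limma adjusted p = 0.28, SE 0.0722), with an interval of 0.981 to 1.22 for the ratio.

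Fbp1, fructose bisphosphatase, had the narrowest spread of the regular probe sets. It read 23338, 22212, 24719, 24229 and 23995 in null 1 to 5, against 23844, 21858, 21219, 22752 and 22212 in WT 1 to 5. After normalization WT 1 lay among the Scd1-null values and null 2 equalled WT 5. The difference was 0.08 in log2 (limma adjusted p = 0.335, SE 0.0526), with a ratio interval of 0.979 to 1.15. On the deposited scale WT 1, at 20864, lay below all Scd1-null values, and WT 5, at 22890, exceeded null 2, at 22677. There the difference was 0.20 (limma adjusted p = 0.13). G6pc, Fbp1 and the brightest Gapdh probe sets read close to the top of the arrays, whose highest deposited values ranged from 25581 to 32532. Whether signals are compressed there was not tested.

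Pklr, the pyruvate kinase of liver and red cells, had 2 regular probe sets whose differences had opposite signs. At the brighter it read 2307, 2455, 2883, 2790 and 2731 in null 1 to 5, against 2988, 3396, 3301, 2199 and 2917 in WT 1 to 5. All 5 Scd1-null values lay below 4 of the wild-type values, and WT 4 was the lowest of the 10. The difference was -0.16 in log2 (limma adjusted p = 0.407, SE 0.116).

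At the dimmer Pklr probe set the values were 902, 789, 778, 744 and 897 in null 1 to 5, against 730, 1290, 664, 652 and 502 in WT 1 to 5. WT 2 stood above all other arrays, while the other 4 wild-type values lay below all the Scd1-null values. The difference was 0.17 (limma adjusted p = 0.617, SE 0.198). Since no call was made at either probe set, no direction is given for Pklr.

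Pdk4 varied more between arrays than between groups. Its values were 880, 895, 1205, 1076 and 705 in null 1 to 5, against 1443, 630, 901, 923 and 770 in WT 1 to 5. The highest and the lowest were wild type, and the group means were 952 ± 193 in Scd1-null and 933 ± 308 in wild type (SD, n = 5 each). The difference was 0.06 in log2 (limma adjusted p = 0.874, SE 0.202), and the ratio interval of 0.772 to 1.41 was wide. In run 2 its sign was the opposite, with 705 in null 5 beside a mean of 991 in WT 1 to 3.

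**Figure D2:**
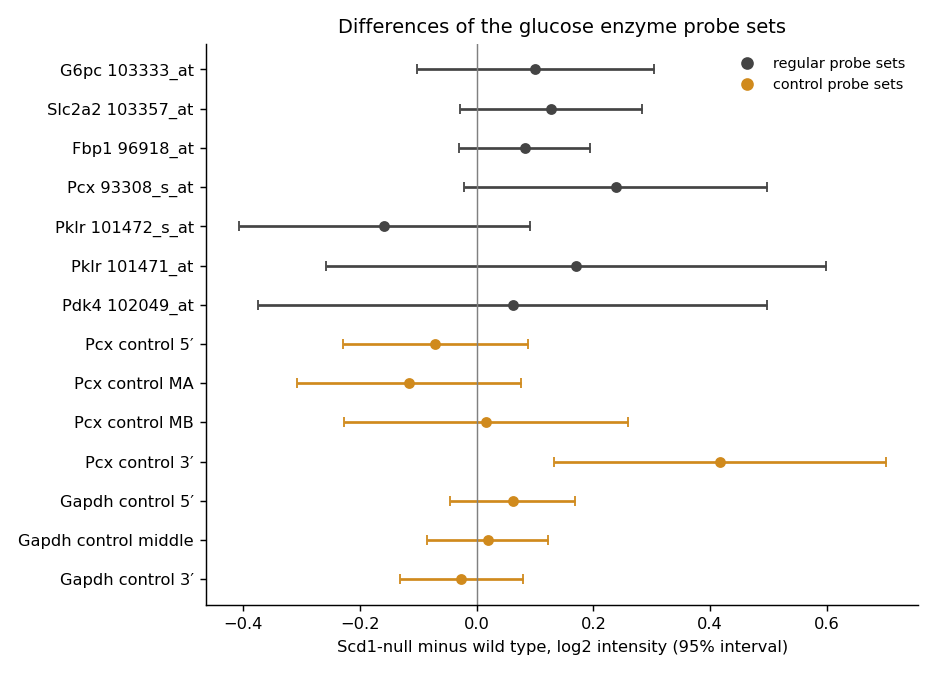
Difference of Scd1-null minus wild type on the log2 intensity scale, with 95% intervals from limma, for the 7 regular probe sets and for the 7 coding-strand control probe sets of Pcx and Gapdh in a fit to which control probe sets were added. Of those plotted, the interval of the Pcx 3′ control probe set alone excludes 0, at 0.42 (0.132 to 0.701); the 3 opposite-strand Gapdh probe sets are not plotted, and of these the 3′ one also excludes 0 (-0.403 to -0.021).

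Pcx, which feeds carbon into gluconeogenesis by turning pyruvate into oxaloacetate, was the member with the largest difference and could be followed along its transcript. Its regular probe set read 2456, 2315, 2276, 2039 and 2688 in null 1 to 5, against 2178, 1622, 1721, 2494 and 2050 in WT 1 to 5. WT 4 read like the Scd1-null arrays, and WT 2 and WT 3 were the lowest. The difference was 0.24 in log2 (limma adjusted p = 0.229, SE 0.12), with a ratio interval of 0.985 to 1.41. With the fluidics run as a block it was 0.56 (limma adjusted p = 0.213), with 2688 in null 5 beside a mean of 1840 in WT 1 to 3.

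The 4 Pcx control probe sets are named for the 5′ end, 2 middle stretches (MA and MB) and the 3′ end. Controls were left out of the test above, and for them a fit with the 10 member controls added was chosen after their values had been seen. It tested 7579 probe sets and called 6.32% of them, of which 0 of 17 were members and 2 members had an unadjusted p under 0.05. The Pcx 3′ probe set read 5833, 6007, 5772, 5188 and 6376 in null 1 to 5, against 4364, 3330, 3927, 6198 and 4464 in WT 1 to 5. Every Scd1-null value exceeded 4 of the wild-type values, and WT 4 alone lay in the Scd1-null range. Its difference was 0.42 on the log2 scale (SE 0.132), which did not pass over all probe sets (limma adjusted p = 0.0717).

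Towards the 5′ end of Pcx the groups did not separate in the same way. The 5′ probe set had a mean of 3618 ± 105 in Scd1-null and 3809 ± 354 in wild-type liver, with a difference of -0.07 (limma adjusted p = 0.574). The MA probe set averaged 2970 ± 271 in Scd1-null liver and 3218 ± 286 in wild-type liver, with a difference of -0.12 (limma adjusted p = 0.432). The MB probe set averaged 3136 ± 357 in Scd1-null liver and 3118 ± 508 in wild-type liver, with a difference of 0.02 (limma adjusted p = 0.944; SD, n = 5 each throughout).

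Within each array the ratio of the Pcx 3′ signal to the Pcx 5′ signal was 1.69, 1.61, 1.59, 1.43 and 1.75 in null 1 to 5, against 1.18, 0.87, 1.08, 1.41 and 1.28 in WT 1 to 5. All 5 Scd1-null ratios lay above all 5 wild-type ratios, although null 4 and WT 4 were close. The log2 ratio was 0.487 higher in Scd1-null liver (two-sided exact permutation p = 0.00794, the smallest that 5 against 5 arrays allow). Adjusted over the 5 within-array ratios computed, the exact p was 0.0397. The ratio was chosen after the values had been seen. It was tested on the arrays on which it was noticed, the permutation does not account for fluidics run, and it does not say which end of Pcx differed. Pcx and Scd1 both lie on chromosome 19. The part of strain background or of lot in the ratio was not tested, and neither can be told apart from genotype.

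The same ratio in other transcripts did not move with genotype past the test. For Gapdh it ranged from 0.793 to 0.904 in Scd1-null and from 0.80 to 0.956 in wild type (two-sided exact permutation p = 0.167, adjusted 0.278). For Actb it ranged from 0.89 to 1.02 in Scd1-null and from 0.838 to 0.944 in wild type (two-sided exact permutation p = 0.278, adjusted 0.348). For Tfrc, the transferrin receptor, it ranged widely, from 0.108 to 1.77 in Scd1-null and from 0.816 to 1.77 in wild type (two-sided exact permutation p = 0.825). The Pcx ratio also differed between wild-type arrays of different fluidics runs, with means of 1.04 in run 2 and 1.35 in run 3. Within run 2 the single Scd1-null array had 1.75, against 1.18, 0.87 and 1.08 in WT 1 to 3.

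**Figure D3:**
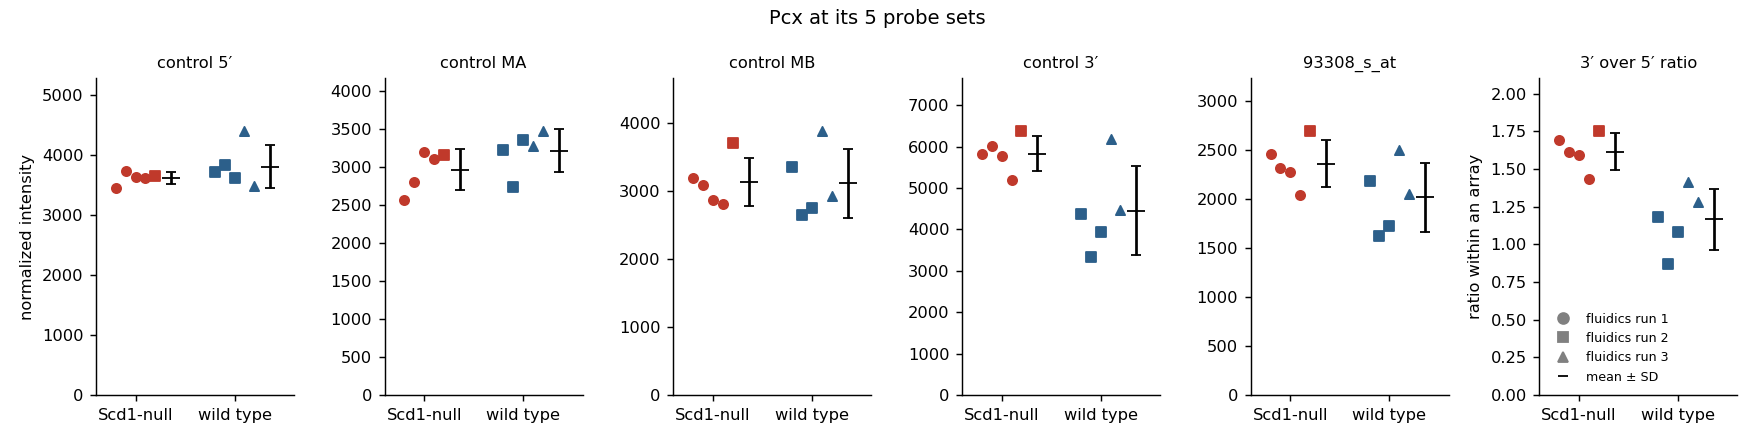
Normalized intensity of Pcx at its control probe sets from 5′ to 3′ and at its regular probe set, and the 3′ over 5′ ratio within each array, for 5 Scd1-null arrays (left) and 5 wild-type arrays (right), with mean and SD. The 5′ panel overlaps, the 3′ panel overlaps through WT 4 at 6198, and the ratios run from 1.43 to 1.75 in Scd1-null and from 0.87 to 1.41 in wild type.

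Gapdh, which catalyses the oxidative step of glycolysis and is widely used as a reference transcript, differed little between the groups at its 3 control probe sets for the coding strand. The 5′ probe set averaged 25948 ± 992 in Scd1-null liver and 24855 ± 909 in wild-type liver. The middle one averaged 23801 ± 840 in Scd1-null liver and 23484 ± 623 in wild-type liver. The 3′ one averaged 21399 ± 423 in Scd1-null liver and 21800 ± 933 in wild-type liver (SD, n = 5 each throughout). In the fit with member controls added their differences were 0.06, 0.02 and -0.03 in log2 (limma adjusted p = 0.455, 0.829 and 0.768), and the intervals lay between -0.131 and 0.169.

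The 3 Gapdh control probe sets for the opposite strand, marked st, gave much lower signals. They ranged from 385 to 1821 in Scd1-null and from 343 to 2033 in wild type. Differences were -0.21 at the 3′ one, -0.16 at the 5′ one and -0.02 in the middle. None was called (limma adjusted p = 0.15, 0.269 and 0.953), and the first had an unadjusted p of 0.0322.

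The probe set shared between genes, annotated to Gapdh and to the pseudogenes Gapdh-ps15 and Gm12070, read 12537, 13282, 14431, 14086 and 14051 in null 1 to 5, against 11160, 11230, 10572, 14307 and 10202 in WT 1 to 5. WT 4 again lay among the Scd1-null values, and the other 4 wild-type arrays lay below all of them. The difference was 0.26 in log2 (limma adjusted p = 0.0826, SE 0.086). It passed without WT 4 (0.35, limma adjusted p = 0.00678) and on the deposited scale (0.49, limma adjusted p = 0.0192). It did not pass without any other single array (limma adjusted p from 0.0935 to 0.169) or with the replicate number as a block (0.115). With the fluidics run as a block this probe set differed by 0.36 and was not called. Its ratio to the middle Gapdh control within an array was 0.574 ± 0.0133 in Scd1-null and 0.489 ± 0.0653 in wild type (SD, n = 5 each), with a two-sided exact permutation p = 0.0476 and 0.119 when adjusted over the 5 ratios. Signal of Gapdh and of its pseudogenes cannot be separated at that probe set.

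**Figure D4:**
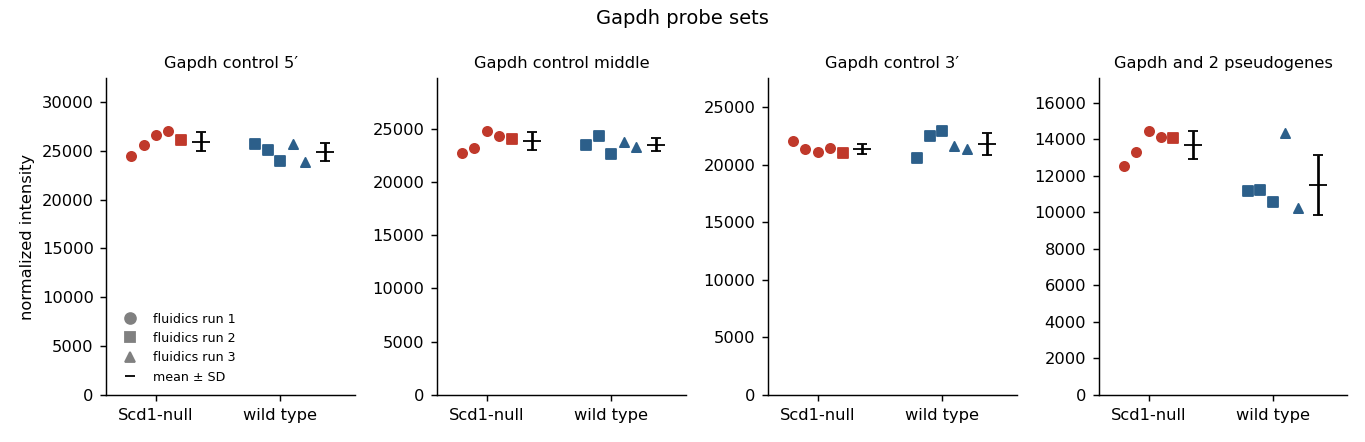
Normalized intensity of Gapdh at its 5′, middle and 3′ control probe sets and at the probe set shared with 2 pseudogenes, for 5 Scd1-null arrays (left) and 5 wild-type arrays (right), with mean and SD. The control panels overlap closely; in the shared probe set WT 4, at 14307, lies in the Scd1-null range and the other wild-type arrays lie between 10202 and 11230.

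Some members varied together from array to array, in both directions. After each group's mean was removed, G6pc and Pcx had a Pearson r of 0.74 over the 10 arrays, and Pklr, at its brighter probe set, had -0.79 with G6pc and -0.77 with Pcx. Arrays with more G6pc signal thus tended to have more Pcx and less Pklr signal. Fbp1 and Pdk4 had an r of 0.61, and Slc2a2 had -0.39 with G6pc. The arrays share normalization and fluidics runs, so these values describe the 10 arrays only.

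Among 5923 genes at their brightest probe sets, those most like G6pc by this measure were Taf10 (r = 0.93), Lbp (0.922) and Shox2 (0.918). Those most like Pdk4 were Rtf2 (0.933), Snx17 (0.911) and H2-M2 (0.908), and those most like Pklr were Ceacam10 (0.971), Asprv1 (0.962) and Acy1 (0.95). With 10 arrays and this many genes the top values of r are a description only.

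Other genes of glucose metabolism were read through 5 lists at each gene's brightest probe set. Together they held 118 genes, of which 80 had a probe set and 64 passed the filter on low signal. With limma 4 of 64 were called higher and 2 lower in Scd1-null liver, against 3.55% higher and 2.85% lower among 5923 genes tested, and 21 of 64 had an unadjusted p under 0.05, beside 1555 of 5923 genes (26.3%). The median difference was 0.05, beside -0.018 over all genes. Of the 6 called genes, 5 came from the list of regulators and 1 was an enzyme. The lists were chosen with earlier results of these data known, so this split is not taken as a result about regulators. Ddit4, among them, passed the filter only through the Scd1-null arrays. Null 5 against WT 1 to 3 is the only comparison of the groups within a fluidics run. With the fluidics run as a block, 0.185% of all probe sets were called, and of the 6 genes Cebpb was called.

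In glycolysis and hexose entry 0 of 10 measured genes were called with limma, and 4 had an unadjusted p under 0.05, to be read beside the 26.3% of all genes, as are the counts of the lists that follow. Differences ranged from -0.50 to 0.43 with a median of 0.12. Pgk1, phosphoglycerate kinase, read 5774, 5774, 5731, 5812 and 6089 in null 1 to 5, against 4771, 5277, 5263, 5671 and 5227 in WT 1 to 5. The groups did not overlap, but the difference of 0.16 was not called (adjusted p = 0.131). Hk1, a hexokinase, differed by 0.26 (adjusted p = 0.157), Eno2, the neuronal enolase, by -0.50 (adjusted p = 0.0795) and Eno3, the muscle enolase, by 0.05 (adjusted p = 0.706). Triosephosphate isomerase, Tpi1, differed by 0.05 (adjusted p = 0.765), and Pfkl, the liver phosphofructokinase, by 0.09 (adjusted p = 0.528).

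In the list of gluconeogenesis and its supply of carbon 0 of 14 measured genes were called with limma, and 2 had an unadjusted p under 0.05. Differences ranged from -0.17 to 0.37 with a median of 0.07. Ldha, a lactate dehydrogenase, read 12250, 15185, 15214, 12714 and 12846 in null 1 to 5, against 11795, 8852, 8774, 14375 and 9728 in WT 1 to 5. WT 4 was again the only wild-type value above the lowest Scd1-null value. The difference was 0.37 (adjusted p = 0.0933). Slc37a4, the transporter that brings glucose phosphate to G6pc, differed by 0.08 (adjusted p = 0.641, SE 0.104).

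Of 7 measured genes of pyruvate oxidation, 1 was called higher and 0 lower with limma, beside 3.55% and 2.85% of all genes. An unadjusted p under 0.05 was reached by 3 of the 7, beside 26.3% of all genes. Dld, the dihydrolipoamide dehydrogenase shared by pyruvate dehydrogenase and related complexes, read 2628, 2962, 2243, 2524 and 2520 in null 1 to 5, against 1763, 1907, 1782, 1084 and 2063 in WT 1 to 5. The groups did not overlap, and WT 4 was the lowest. Dld rose by 0.61 in log2 units (adjusted p = 0.0332, SE 0.151), or 1.53-fold. That call was lost without null 1, 2, 4 or 5 (adjusted p = 0.0689, 0.088, 0.0523 and 0.0703), without WT 1 or 3 (0.062 and 0.0621), with the replicate number as a block (0.0509) and with the fluidics run as a block (0.47, adjusted p = 0.436). Without single arrays the difference ranged from 0.45, without WT 4, to 0.69, without WT 5. Pdhb, which encodes a subunit of pyruvate dehydrogenase itself, differed by 0.35 (adjusted p = 0.0637), and Dlat, of the same complex, by -0.21 (adjusted p = 0.179). Pdk1, a kinase of the same family as Pdk4, differed by 0.09 (adjusted p = 0.723).

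In the glycogen list 0 of 10 measured genes were called with limma, and 3 had an unadjusted p under 0.05. Differences ranged from -0.34 to 0.56 with a median of 0.02. Ppp1r3c, which targets a phosphatase to glycogen, differed by -0.30 (adjusted p = 0.0856). Gbe1, the branching enzyme, differed by 0.56 (adjusted p = 0.129). It exceeded the floor on 7 of 10 arrays, with WT 1, WT 4 and null 3 below it, so that difference is partly set by the floor. Ugp2, which makes the sugar donor for glycogen, differed by 0.03 (adjusted p = 0.844). Pygl and Gys2 matched no probe set by symbol and are not analysed here.

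Among the regulators 23 genes were measured, of which 3 were called higher and 2 lower with limma. Of all genes tested 3.55% were called higher and 2.85% lower. In this list 9 genes had an unadjusted p under 0.05, beside 26.3% of all genes, and the list was chosen with earlier results known. The median was -0.02. Foxa2, a forkhead factor of the hepatocyte, read 1092, 1053, 1324, 1408 and 1344 in null 1 to 5, against 2470, 2138, 1520, 2016 and 1693 in WT 1 to 5. All Scd1-null values lay below all wild-type values. Foxa2 fell by 0.65 in log2 units (adjusted p = 0.0181, SE 0.137). The call was lost without null 2 (adjusted p = 0.0537), with the replicate number as a block (adjusted p = 0.0578) and with the fluidics run as a block (-0.575, adjusted p = 0.318).

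Srebf1, the factor through which insulin raises lipid synthesis genes, fell by 0.81 (adjusted p = 0.00271), or to 0.572 of wild type, but gave -0.49 when the run was a block (adjusted p = 0.201). Cebpb, a factor that acts on gluconeogenic promoters, read 3997 to 5131 in Scd1-null and 1827 to 3993 in wild type, where WT 4 was the highest, so the groups did not overlap but came close. Cebpb rose by 0.93 (adjusted p = 0.0144). When the run was a block the difference was 1.45, which rests on null 5 alone against WT 1 to 3. Ddit4, an inhibitor of mTOR, read 705 to 2817 in Scd1-null liver and 151 to 288 in wild type, where it lay below the floor of 351. It exceeded the floor on 5 arrays, all Scd1-null, so it passed the filter only through the group where it is high. Wild type was held at the floor, so its level is only bounded and its spread is lost. The fitted ratio was 3.42 with an interval of 2.11 to 5.54 (adjusted p = 0.0099). Neither the interval nor the p measures wild-type spread, and the call is not taken as support. The log2 difference of 1.77 was 1.47 without null 4, and 1.42 when the run was a block, where it was not called (adjusted p = 0.309).

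Igfbp1, a secreted protein whose gene insulin represses, read 9937, 10202, 11253, 11181 and 7831 in null 1 to 5. The wild-type values were 1845, 786, 2655, 2864 and 4182. The groups did not overlap, and Igfbp1 rose by 2.22 (adjusted p = 0.00375, SE 0.331), or 4.65-fold, at that probe set. With the run as a block the difference was 2.32 but was not called (adjusted p = 0.0787). The other Igfbp1 probe set fell by 0.50 (adjusted p = 0.0473), so no single direction is given for the gene. G6pc, whose window also matched CAAAACA, was not called. The part of insulin or of that motif in either gene was not tested.

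The other regulators were not called at their brightest probe sets, but Atf3, a stress-induced factor, fell by 0.55 at a second, dimmer one (adjusted p = 0.0248), against -0.15 at the brightest (adjusted p = 0.461). The glucagon receptor Gcgr differed by 0.05 (adjusted p = 0.757), Irs2 by -0.07 (adjusted p = 0.755) and Hnf4a by 0.13 (adjusted p = 0.222). Tat, which makes a tyrosine aminotransferase induced by glucocorticoids and glucagon, differed by 0.05 (adjusted p = 0.585). Irs1 lay lower on every Scd1-null array, at 732 to 928 in Scd1-null against 953 to 1138 in wild type, but was not called (-0.29, adjusted p = 0.0923). Onecut1 ranged from 1582 to 3209 in Scd1-null and from 2139 to 9114 in wild type (-0.89, adjusted p = 0.117). Ppargc1a, the coactivator that fasting induces, did not exceed the floor on any array, and Foxo1 and Mlxipl matched no probe set by symbol.

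**Figure D5:**
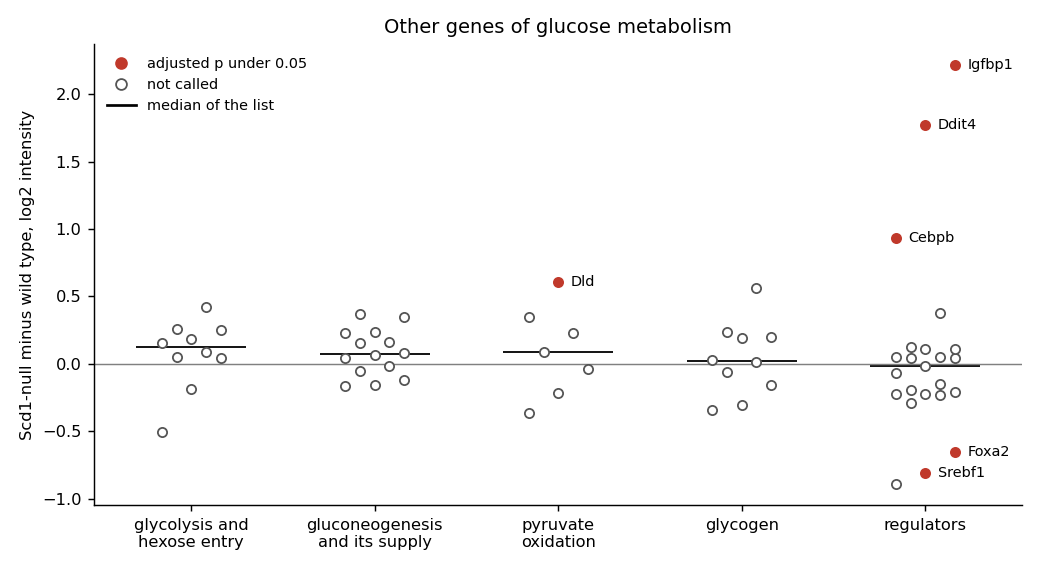
Difference of Scd1-null minus wild type on the log2 intensity scale for the 64 measured genes of the 5 lists, with 1 point per gene at its brightest probe set, filled where the limma adjusted p was under 0.05, and a line at each list's median. The 6 filled points are Igfbp1, Ddit4, Cebpb, Dld, Foxa2 and Srebf1, and the list medians lie between -0.02 and 0.12.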

How the data were processed

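The authors deposited 1 table of intensity values on a linear scale (10043 probe sets, 10 arrays). The sources used here name neither the summary algorithm nor any scaling. Per the file headers of the settings files, arrays were of type MG_U74A, and chip lot, module and hybridisation time were recorded. A new fluidics run was set at each gap of over 1 hour. A comment there says the cRNA amount of WT 3 was inexact. Arrays differed by up to 19.8% in trimmed mean, so the 9977 non-control probe sets were quantile normalized, floored at the 25th percentile (351) and taken to log2. Control probe sets were mapped through the same curve. The 7569 probe sets above the floor on at least 5 arrays were tested with limma 3.58.1 in R 4.3.3 (lmFit, eBayes with trend, Benjamini-Hochberg over all), 5 Scd1-null against 5 wild-type arrays. Called means an adjusted p under 0.05. The number of arrays limits precision, with a median residual SD of 0.18.

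Single ratios had an exact permutation test over 252 assignments. Symbols came from the platform annotation, and 8732 probe sets matched a GRCm38.p6 gene ID. The procedure was tested on simulated data. The rule for names took all member probe sets, called genes of the 5 lists (at most 6 a list), 7 further genes called or not, and the 3 genes most like G6pc, Pdk4 and Pklr. Other genes named beside them (Pgk1, Hk1, Eno2, Eno3, Tpi1, Pfkl, Ldha, Pdhb, Dlat, Pdk1, Ppp1r3c, Gbe1, Ugp2, Gcgr, Irs1, Irs2, Hnf4a, Tat, Onecut1, Atf3, Hal, Arg1 and Ass1) were chosen after their values were seen. The members and lists were chosen with earlier results of these data known. The replicate numbers of the labels were not used to pair arrays in the main fit. Same-numbered arrays correlated between -0.13 and 0.11 after group means were removed, and 1 of 5 pairs exceeded 0.1. With 5 pairs these values cannot exclude a pairing.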

Additional observations from a re-analysis of the deposited data

How the results depend on the processing

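Of the 7 regular member probe sets, 0 were called higher and 0 lower under all 25 alternatives run, 23 planned and 2 chosen after seeing the data. The 10 control probe sets were fitted in 1 of these. The lowest adjusted p of a regular member was 0.0655, for Slc2a2 on the deposited scale. G6pc, Slc2a2, the regular Pcx probe set and both Pklr probe sets kept their sign under each (the dimmer Pklr probe set was not tested with the filter at the median). Fbp1 turned to -0.0175 with cyclic loess, and Pdk4 turned under 4, reaching -0.407 with the fluidics run as a block. The counts of 4 pathway genes called higher and 2 lower were 8 and 2 on the deposited scale, 2 and 1 with no filter, 7 and 5 with array weights, 1 and 0 with the run as a block, and 0 and 0 in run 2 alone. They ranged from 3 to 6 higher and from 1 to 4 lower when a single array was left out, with 1 lower without null 2 and 4 lower without WT 4. With the replicate block they were 3 and 1, and the block changed 0 member calls. When the run is a block, each difference rests on null 5 against WT 1 to 3. The log2 difference of the Pcx 3′ to 5′ ratio ranged from 0.387 to 0.56 without single arrays. It was 0.503 on the deposited scale, where null 4 and WT 4 overlapped (exact permutation p = 0.0159), 0.557 without WT 3 and WT 4 (exact permutation p = 0.0179) and 0.754 in run 2 alone, where 1 array against 3 cannot go below an exact permutation p of 0.25. Over all probe sets, 270 were called higher and 209 lower. Those counts were 480 and 96 on the deposited scale, 152 and 151 with no filter, 517 and 497 with array weights, 151 and 68 with the replicate block, 7 and 7 with the run as a block, and 0 and 1 in run 2 alone, where 1296 had an unadjusted limma p under 0.05. Leaving out single arrays gave from 100 to 496 higher and from 59 to 454 lower, with the highest counts without WT 4. Of 5 Scd1-null arrays 1 correlated best with the wild-type array of its own number.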
